A study of Mus musculus with 8 samples.

Results

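The regions described here were 290 short stretches of chromatin at transcription start sites (TSSs) that gave more signal after acute chromate exposure in Hepa-1c1c7 (Hepa-1) cells, a mouse hepatoma line. They were selected on the readout itself: all 2945 peaks in the deposited list for 25 µM Cr(VI) against its control were taken, and those whose centre lay within 1000 bp of a RefSeq TSS on the mm10 genome were kept. This was 9.85% of the list, and the other acute peaks lay inside genes (1509) or between genes (1146). The signal was formaldehyde-assisted isolation of regulatory elements (FAIRE), in which crosslinked chromatin is extracted with phenol/chloroform and the DNA free of protein is sequenced from the aqueous phase. Treated cells received CrK2O4 at 25 µM for 90 minutes. A second regimen supplied 0.5 µM to the medium through 20 passages, and its control cells were passaged as often without chromium. FAIRE had 1 library in each of the 4 conditions, and poly-A RNA-seq had 2 libraries of cells given 25 µM Cr(VI) and 2 control libraries, whose labels do not say which regimen they served. All groups were 1 cell line, and no label says that libraries came from separate cultures, so that the p-values below measure only the spread between these libraries, which may be technical.

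Chromate enters cells through anion transporters and is reduced inside them by ascorbate and by glutathione and other thiols. This leaves trivalent chromium bound to DNA and protein. A promoter in use is usually kept free of nucleosomes just upstream of its TSS, and many mammalian promoters lie in CpG islands, which are rich in G and C and keep their CpG dinucleotides unmethylated. AP-1, a dimer of Fos and Jun proteins, binds TGACTCA and its reverse complement TGAGTCA and is induced by many stresses. BACH proteins pair with small MAF proteins and bind GCTGACTCA or GCTGAGTCA, which contain the AP-1 sequence, and CTCF binds insulators and loop anchors.

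Peaks that held the AP-1 or the CTCF sequence are printed first, because these matches and the RNA of the nearest genes are what the results below turn on. All are written 5′ to 3′ on the strand of the gene, from the mm10 reference, with the match in capitals. The peaks at Smpd3, Cpt1a, Slc4a11, P2rx7, Fam53b and Mir3097 hold the AP-1 sequence. In Mir3097 the bases around the match also spell the BACH sequence. The peaks at Gad1 and Gm29183 hold the CTCF sequence, as a 12 base core. None of these stretches overlapped an exon of an mRNA.
Smpd3 (chr8:106287458-106287757, minus strand, the central 300 bases of the peak): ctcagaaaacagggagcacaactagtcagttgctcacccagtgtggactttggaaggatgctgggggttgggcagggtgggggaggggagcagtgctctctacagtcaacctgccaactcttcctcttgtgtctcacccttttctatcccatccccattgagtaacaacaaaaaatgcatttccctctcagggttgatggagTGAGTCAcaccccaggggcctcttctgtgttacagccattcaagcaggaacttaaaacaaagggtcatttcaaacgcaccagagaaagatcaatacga
Cpt1a (chr19:3334107-3334327, plus strand): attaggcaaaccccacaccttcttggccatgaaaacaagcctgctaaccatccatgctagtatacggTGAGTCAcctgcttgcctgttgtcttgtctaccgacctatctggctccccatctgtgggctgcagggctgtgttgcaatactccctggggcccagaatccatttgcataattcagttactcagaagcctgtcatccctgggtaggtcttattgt
Slc4a11 (chr2:130698176-130698276, minus strand): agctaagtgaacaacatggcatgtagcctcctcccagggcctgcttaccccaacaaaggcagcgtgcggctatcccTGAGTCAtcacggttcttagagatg
P2rx7 (chr5:122649438-122649625, plus strand): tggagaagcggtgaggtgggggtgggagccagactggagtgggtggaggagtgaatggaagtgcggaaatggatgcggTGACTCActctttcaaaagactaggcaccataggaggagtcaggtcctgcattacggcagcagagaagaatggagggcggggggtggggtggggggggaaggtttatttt
Fam53b (chr7:132814291-132814445, minus strand): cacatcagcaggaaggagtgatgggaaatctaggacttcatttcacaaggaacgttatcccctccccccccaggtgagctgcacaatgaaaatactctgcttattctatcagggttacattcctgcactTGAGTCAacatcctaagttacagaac
Mir3097 (chr5:35020907-35021041, plus strand): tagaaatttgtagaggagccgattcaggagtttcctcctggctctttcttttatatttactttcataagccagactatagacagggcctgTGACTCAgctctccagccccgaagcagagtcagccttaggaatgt
Gad1 (chr2:70561099-70561268, plus strand): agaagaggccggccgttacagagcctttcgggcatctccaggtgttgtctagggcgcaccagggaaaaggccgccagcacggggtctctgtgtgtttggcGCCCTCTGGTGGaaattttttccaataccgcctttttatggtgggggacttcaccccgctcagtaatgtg
Gm29183 (chr1:73826448-73826562, minus strand): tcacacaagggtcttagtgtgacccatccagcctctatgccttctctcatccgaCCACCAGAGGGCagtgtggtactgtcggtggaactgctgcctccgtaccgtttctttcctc

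The 290 peaks lay on both sides of the TSS over the whole range of 1000 bp, most densely next to it. The centre lay upstream in 135 and downstream in 155 peaks, at a median distance of 421 bp. In steps of 250 bp from 1000 bp upstream to 1000 bp downstream, the bins held 24, 21, 35, 55, 38, 41, 43 and 33 peaks. The fullest bin was thus the 250 bp just upstream of the TSS, with 55 peaks, while 33 peaks (11.4%) were centred within 50 bp and 48 (16.6%) covered the TSS itself. By the RefSeq annotation at the peak centre, 148 peaks lay in introns, 72 outside transcripts, 35 in a 5′ UTR, 27 in exons of noncoding transcripts, 6 in coding sequence and 2 in a 3′ UTR.

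Protein-coding genes held the nearest TSS of 209 peaks (72.1%, 95% Wilson interval 66.6 to 76.9) and long noncoding RNA genes that of 72 (24.8%, 20.2 to 30.1). Among all 79149 distinct RefSeq TSSs these classes made up 73.9% and 20.2%. The remaining peaks were nearest to 4 snoRNA, 3 miRNA, 1 snRNA and 1 tRNA TSSs, and the miRNAs were Mir3097, Mir7047 and Mir184. The nearest TSS belonged to predicted transcripts alone for 142 peaks, and it was the 5′-most TSS of its gene for 178. The other 112 peaks marked an inner TSS, a median of 1938 bp from the 5′-most one, as in Smpd3 and Ttc39b. The peaks belonged to 287 genes, and Cpt1a, Gm24618 and Gm30757 had 2 peaks each. For 36 peaks more than 1 gene had a TSS within 1000 bp, and 46 peaks (15.9%) were at a TSS with another gene starting on the opposite strand within 1000 bp.

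Peak centres nearest to a TSS included those of Ndufs7 (2.5 bp upstream), Bak1 (4.5 bp upstream), Ceacam10 (6.0 bp upstream) and Platr14 (6.5 bp upstream). Gmpr2 (8.5 bp downstream), Norad (9.0 bp downstream), Gm4951 (10.5 bp upstream), Fundc1 (12.0 bp downstream) and Psg16 (12.5 bp upstream) followed. Ndufs7 encodes a subunit of mitochondrial complex I, Bak1 a pore-forming protein of apoptosis, Fundc1 a receptor for mitophagy, and Norad is a noncoding RNA that binds Pumilio proteins. These genes thus included widely used ones and Psg16, which had hardly any RNA here, with 0, 1, 0 and 0 counts in the 4 libraries. At the edge of the selection, the last peaks inside were those of Rap1gapos, Gm30466 and Acvr1 at 986.5, 989.5 and 994.5 bp, with scores of 59.4, 59.0 and 80.8. The first ones outside were those of Gm14437, Cox19 and Galnt6 at 1001, 1003.5 and 1009.5 bp, with scores of 75.1, 52.7 and 56.2.

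Intervals on shares below cover counting error only, and with 1 FAIRE library a condition nothing about the peaks could be tested between conditions. The score is that of the MACS peak caller, 10 times the negative log10 of its p-value for 1 treated against 1 control library, so it measures reads and not replicates. Among the 290 peaks it ran from 50.0 to 112.6 with a median of 57.9, against medians of 57.1 in acute peaks inside genes and 57.2 between genes. The widths had a median of 138 bp (range 48 to 497) against 118 bp and 116.5 bp. The highest scores included those of Snap47 (112.6), Ttc39b (104.5), Ephx3 (96.1) and Gm41677 (90.0). The widest peaks were those of Rassf9 (497 bp), Gm41677 (487 bp), Foxk1 (439 bp), Gm41699 (344 bp) and Wbp1l (342 bp). The 2 peaks scored at least 100, those of Snap47 and Ttc39b, were 195 bp and 52 bp wide. For 8 of 288 peaks measured, most of the possible 50 bp reads, over 50%, occurred elsewhere in mm10 as well. These lay at 2310057N15Rik, 2210418O10Rik, Gm34132, Gm1096, Lypd11, Gm24618 (2 peaks) and Snord116l14, and reads there can come from other copies.

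Sequence around the peaks was of mixed base composition. A window of 1000 bp was called CpG-island-like when its GC content exceeded 50% and its ratio of observed to expected CpG exceeded 0.6. By this rule 57 of the 290 peaks were CpG-island-like (19.7%, 95% Wilson interval 15.5 to 24.6), with a median GC content of 50.0% and a median CpG ratio of 0.316. Acute peaks away from TSSs were almost never so, with 3 of 1509 inside genes (0.199%) and 2 of 1146 between genes (0.175%). The 169 TSS peaks of the long-term 0.5 µM list were mostly CpG-island-like, 124 of them or 73.4% (66.2 to 79.5).

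The TSSs themselves were close to the average TSS in this respect. Centred on the TSS, 106 of 290 windows were CpG-island-like (36.6%, 31.2 to 42.2), against 34.5% of all 79149 TSSs and 78.7% of the TSSs of the 169 long-term peaks. At the 124 TSSs of curated mRNAs the share was 52.4% (43.7 to 61), against 46.6% of all 25999 such TSSs. In 55 of the 106 peaks at a CpG-island-like TSS the peak was CpG-island-like too, at a median of 185.5 bp from the TSS, and the other 51 lay at a median of 649 bp.

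CpG islands thin out with distance from the TSS, so the peaks were also set beside windows at matched distances. Windows placed at the same distances around all TSSs, weighted as the 290 peaks were distributed, were CpG-island-like in 23.8%, beside 19.7% in the peaks. In the 250 bp upstream of the TSS 18 of 55 peaks were CpG-island-like (32.7%, 21.8 to 45.9) and in the 250 bp downstream 13 of 38 (34.2%, 21.2 to 50.1), beside 33.1% and 34.6% of windows at all TSSs. The peaks were below all TSSs from 250 to 500 bp downstream, with 6 of 41 (14.6%, 6.88 to 28.4) beside 31.3%. Further than 500 bp upstream 0 of 24 and 0 of 21 peaks were CpG-island-like, with upper limits of 13.8 and 15.5, beside 6.55% and 11.7% of the windows, so that no difference was detectable there. From 500 to 750 bp downstream it was 13 of 43 peaks (30.2%, 18.6 to 45.1) beside 20.6%.

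**Figure D1:**
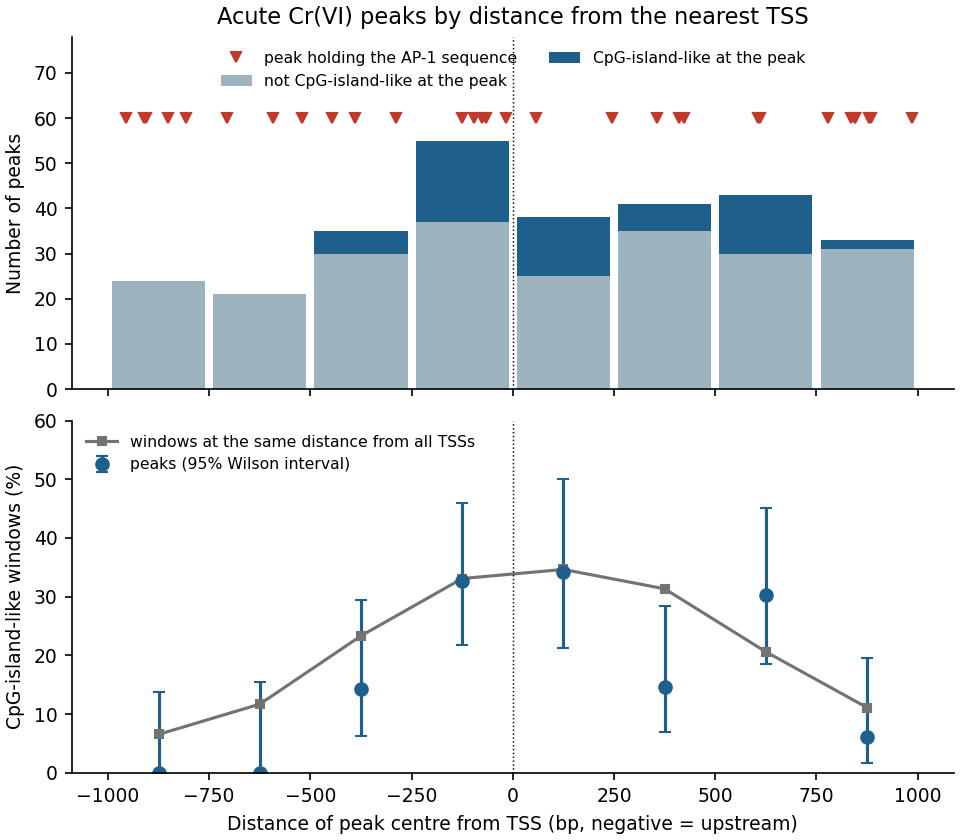
Number of acute peaks by distance from the nearest TSS in bins of 250 bp (top, the dark part of each bar is CpG-island-like, triangles mark the 30 AP-1 peaks at an arbitrary height) and share of CpG-island-like windows in each bin (bottom, points with 95% Wilson intervals) beside windows at the same distance from all 79149 TSSs (squares). The peaks reach 32.7% and 34.2% on either side of the TSS, beside 33.1% and 34.6% at all TSSs, and 0 of 24 and 0 of 21 in the bins beyond 500 bp upstream.

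The AP-1 sequence lay inside 30 of the 290 peaks (10.3%, 95% Wilson interval 7.34 to 14.4). To compare classes of different width, 300 bp around each peak centre was searched. There 39 of the peaks had a match (13.45%, 9.996 to 17.9), beside 18.0% (16.2 to 20.1) of acute peaks inside genes, 19.6% (17.35 to 21.9) of those between genes and 6.51% (3.67 to 11.3) of the long-term TSS peaks. Of 292932 windows of 300 bp that tile the 1000 bp on both sides of all TSSs, 4.66% held it. The share in the acute TSS peaks was thus 2.89 times that of TSS windows in general. It was below that of the other acute peaks, and the intervals overlapped.

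AP-1 matches and CpG islands did not occur together in these peaks. Of the 30 AP-1 peaks, 0 were CpG-island-like (0%, upper limit 11.4), against 57 of the 260 without it (21.9%, 17.3 to 27.3). The 30 peaks lay further from the TSS, at a median of 600 bp (range 17.0 to 986.5) against 412 bp, and 17 of them were over 500 bp away. By distance, 5 of 58 peaks within 100 bp of the TSS held the sequence (8.62%), 2 of 35 from 100 to 250 bp (5.71%), 6 of 76 from 250 to 500 bp (7.89%) and 17 of 121 beyond (14.0%, 8.96 to 21.3). Their widths had a median of 174.5 bp against 132 bp without the sequence, and a wider peak has more room for a match. The match nearest to the centre was a median of 35.8 bp from it, and 18 of the 30 were within 50 bp. A position placed evenly across a peak of the median width would lie a mean of 43.6 bp from the centre. Whether the matches were central was not tested. The longer BACH sequence stood in 5 peaks, among them those of Spata45, Tex2, Mir3097 and Shfl.

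CTCF matches were few. The sequence lay in 4 peaks (1.38%, 0.538 to 3.49), those of Gad1, Psg16, Gm29183 and Gm52252. In 300 bp windows the share was 1.72% (0.739 to 3.97), beside 0.262% of TSS windows, 2.98% of acute peaks inside genes and 2.88% between genes. No peak held both CTCF and AP-1. The distances of the CTCF matches from the peak centre were 2.5, 15, 21 and 37 bp, in Gm29183, Gm52252, Gad1 and Psg16.

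Sequences known from promoters occurred as well. The GC box GGGCGG, bound by SP and KLF factors, lay within 300 bp windows of 64 peaks (22.1%, 17.7 to 27.2), beside 14.1% of TSS windows, 7.22% and 4.36% of acute peaks inside and between genes, and 56.8% of long-term TSS peaks. Within the peak bounds it lay in 44, of which 26 were CpG-island-like. The ETS sequence CCGGAAGT lay in 9 peaks (3.10%, 1.64 to 5.79, beside 0.788% of TSS windows), at a median of 50.0 bp from the TSS, and these included Tfg, Nostrin, Ccdc173, Platr14, Nmnat1, Wrap73, Piwil4 and Atp7a. The cyclic AMP response element TGACGTCA lay in the peaks of I730030J21Rik, Ccdc173 and Nsmce3, all within 67.0 bp of the TSS. The CCAAT box was as common as elsewhere, with 31.4% (26.3 to 36.9) beside 33.4% of TSS windows. The antioxidant response element TGACNNNGC, bound by NRF2, had 14.5% (10.9 to 19) beside 10.01%, and the dioxin response core GCGTG had 25.5% (20.8 to 30.8) beside 20.7%. Of sequences bound by liver factors, FOXA TGTTTAC was in 15 windows (5.17%, 3.16 to 8.36, beside 3.82%), C/EBP TTGCNNCAA in 7 (2.41% beside 2.44%) and HNF4 CAAAGTCCA in 1 (0.345% beside 0.440%). Among the 21 sequences searched, the interval of the acute TSS peaks lay wholly above the TSS windows for AP-1, BACH, CTCF, ETS, the cyclic AMP response element, the GC box, the antioxidant response element, the dioxin core and the E-box CACGTG, and wholly below them for the TATA box TATAAA (12.4%, 9.10 to 16.71, beside 16.72%). The other 11 intervals held the share of the TSS windows. A match is a string of letters in the reference, not a bound site, and windows around neighbouring TSSs share sequence. These windows cover the 1000 bp on both sides evenly and, unlike the CpG windows, were not matched to the distances of the peaks. Within the peak bounds, the GC box share was 29.3% within 100 bp of the TSS and 8.26% beyond 500 bp. The AP-1 share was higher beyond 500 bp, as given above. Position was not separated from sequence in these shares. The 21 intervals were not adjusted for their number, and those of the dioxin core, E-box and TATA box cleared the windows narrowly.

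**Figure D2:**
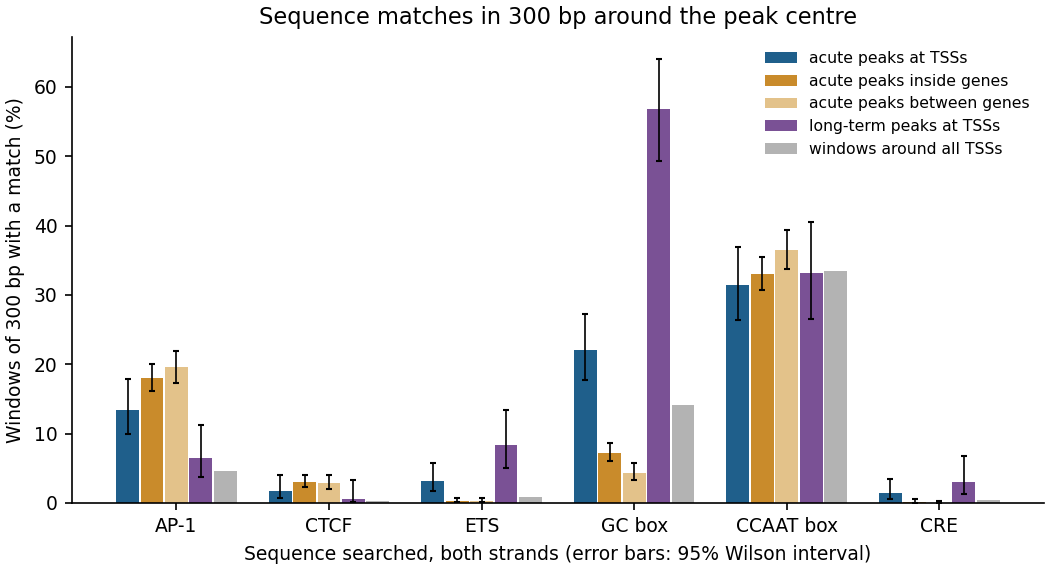
Share of 300 bp windows around the peak centre that hold each of 6 sequences (bars, with 95% Wilson intervals for the peaks) in the 290 acute TSS peaks, the other acute peaks, the long-term TSS peaks and windows around all TSSs. The acute TSS peaks lie between the other acute peaks and TSS windows for AP-1 (13.45%) and between the other acute peaks and long-term TSS peaks for the GC box (22.1%).

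A list of 10 genes, named in the study for an AP-1 site in a promoter that opened at 25 µM, lay wholly within the 290 peaks. They included Spata45 (given under an older symbol), Gcnt2, Gm19461, Mir3097, Ndufs7, Pgap3, Slc29a1, Slc4a11 and Wbp1l. Since that list was drawn from these libraries, it is no independent evidence about them, and 0 of its 7 tested genes passed the edgeR test of RNA described below. An exact 7 base match lay inside 6 of the peaks, among them those of Spata45, Gcnt2, Mir3097, Slc4a11 and Wbp1l, at 26.0 to 158.5 bp from the centre. No exact match lay within 500 bp of the centre in the other 4. The study used position weight matrices, which admit variant bases, so a missing exact match does not contradict its list.

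Almost no acute TSS peak was near a peak of the long-term treatment. None of the 290 overlapped one, 2 had one within 1000 bp (Slc18a1 at 315 bp and Brd2 at 958 bp) and 4 within 10000 bp, with Smim14 at 6111 bp and Tax1bp3 at 8392 bp. Other acute peaks were also sparse around them, with 8 of 290 (2.76%, 1.40 to 5.35) having another one within 5000 bp. Shares for the acute peaks away from TSSs were not set beside these, and the paper reported few peaks shared between the whole lists. Neither sparseness is thus shown to be particular to TSS peaks.

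RNA-seq gave a readout of the nearest genes that the selection had not used. The totals were 32319676 to 37696116 counts per library, and 13619 genes passed the filter on low counts and were tested. Hepa-1 cells should express liver genes, and of 12 hepatocyte markers Alb, Afp, Trf, Foxa2, Krt8 and Krt18 were present at 52.98 CPM (counts scaled to the library total times its TMM factor) or more in every control library. Apob had 0.662 and 0.665 CPM in control and 18.8 and 11.9 CPM in treated libraries. Apoa1, Serpina1a, Hnf4a and Ttr stayed under 2 CPM in every library, and the endothelial markers summed to 0.633 to 2.38 CPM. The summed hepatocyte markers were 4225 and 4361 CPM in control and 7468 and 8741 CPM in treated libraries, and the fibroblast markers, led by Dcn and Col1a1, 689 and 700 against 1276 and 1407. The leukocyte markers summed to 57.9 to 58.0 CPM in control and 42.2 to 60.1 CPM in treated libraries, mostly Csf1r, with Ptprc and Adgre1 under 0.2 CPM. Several of these levels differed between the groups, as did some of the genes below, and the part of the markers in the results was not tested. In bulk RNA, fewer cells of a type and less RNA per cell cannot be told apart. The treated libraries also differed more from each other, with 1404 genes over 2-fold apart against 83 between the controls.

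Of the 287 nearest genes, 216 were in the count table and 183 passed the filter (84.7%, 95% Wilson interval 79.3 to 88.9), against 58.2% of all 23403 genes. Genes with many annotated TSSs are both more often near a peak and more often expressed. Among genes with 1 TSS the shares tested were 73.1% (59.8 to 83.2) of peak genes and 44.9% of all genes, with 2 to 4 TSSs 86.7% and 68.3%, and with 5 or more 91.5% and 76.5%. The peak genes were thus the more often expressed ones at each number of TSSs. In 8 of them no library had a count, among them Mir3097, Mir184 and Dkk4, and poly-A libraries recover few miRNA precursors. The level of the tested peak genes was ordinary, with a median of 7.78 RPKM (CPM per kilobase of the longest annotated transcript) in control cells beside 7.61 RPKM over all tested genes. Of the 183 genes, 32 were under 1 RPKM, 82 reached 10 RPKM and 8 reached 100 RPKM.

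The highest control levels were 731 RPKM for Rpl19, a ribosomal protein gene with many near-identical pseudogenes, and 674 RPKM for Sod1, the cytosolic superoxide dismutase. Scd2, a fatty acid desaturase, had 504 RPKM, Atp5j2, a subunit of ATP synthase, 397 RPKM and Hsp90aa1, a stress-induced chaperone, 264.5 RPKM. Genes with a CpG-island-like peak stood higher than the rest. Among 54 such genes with counts, 53 were tested (98.1%, 90.2 to 99.7), at a median of 16.1 RPKM, and of the other 162 genes 130 were tested (80.2%, 73.5 to 85.6), at 5.43 RPKM. The 13 tested genes with the AP-1 sequence in the peak had a median of 10.2 RPKM.

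After 25 µM Cr(VI) 10 of the 183 tested peak genes differed from control at an adjusted p under 0.05 (edgeR's quasi-likelihood test, Benjamini-Hochberg over all genes), or 5.46% (2.995 to 9.77) beside 4.63% of all tested genes. Of these, 3 were higher (1.78% of all genes were) and 7 lower (2.85% of all genes were). The share was near the background, and so was that of unadjusted p-values under 0.05, with 55 genes (30.1%, 23.9 to 37.1) beside 30.7%. DESeq2 called 33 of 192 peak genes (17.2%, 12.5 to 23.2), 15 higher and 18 lower, beside 13.3% of all genes it tested, and all 10 genes were among them. The median log2 fold change was −0.12 in the peak genes and −0.0047 over all tested genes, with quartiles of −0.38 and 0.24 against −0.36 and 0.36. Both treated libraries lay below both controls for 77 of the 183 genes (42.1%, 35.2 to 49.3; 34.0% of all genes) and above them for 49 (26.8%, 20.9 to 33.6; 32.2% of all genes). Changes past 2-fold in either direction were seen in 29 peak genes (15.8%, 11.3 to 21.8) beside 14.4% of all genes.

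**Figure D3:**
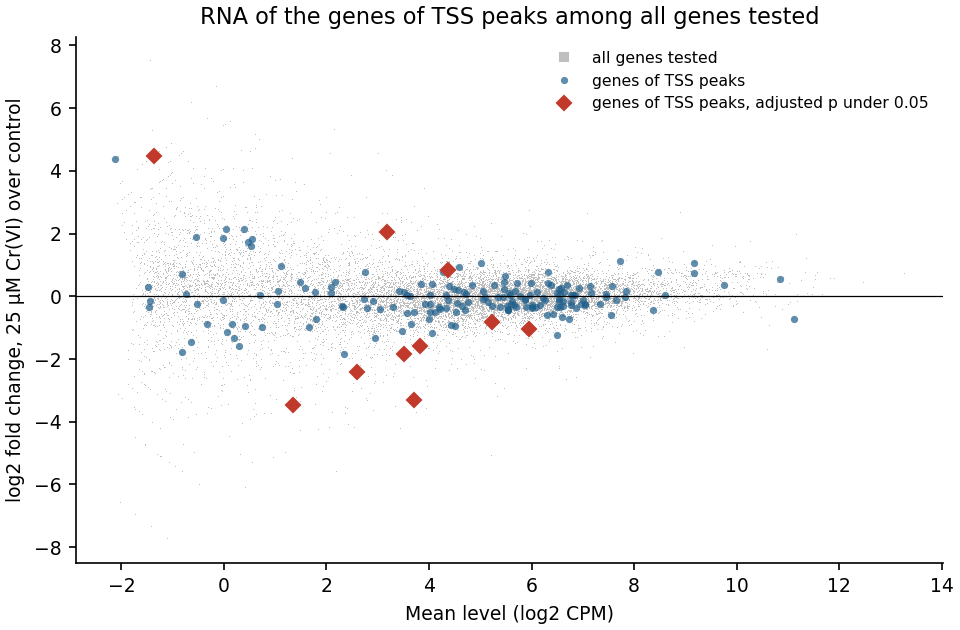
log2 fold change of RNA after 25 µM Cr(VI) over control against mean level in log2 CPM for all 13619 tested genes (grey), the 183 tested genes of TSS peaks (blue) and the 10 of these with an adjusted p under 0.05 (red diamonds). The median is −0.12 in the peak genes and −0.0047 over all tested genes, with quartiles of −0.38 and 0.24 against −0.36 and 0.36.

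Of the 7 genes that fell, Capsl and Nostrin had the largest changes. Capsl, a calcium-binding protein gene on chromosome 15, had a peak of 309 bp centred 48.0 bp upstream of a TSS. It had 0.384 and 0.414 CPM in the treated and 4.29 and 4.66 CPM in the control libraries. The log2 fold change was −3.48 (SE 0.26, adjusted p = 0.0282, edgeR). Nostrin encodes an adaptor that moves endothelial nitric oxide synthase, and its peak (chr2:69135659-69135821) sat 60 bp upstream of its only TSS and held an ETS sequence. It fell from 23.9 and 23.3 CPM to 2.60 and 2.14 CPM, with a log2 fold change of −3.31 (SE 0.19, adjusted p = 0.0282, edgeR). In both genes the treated libraries lay far below the controls, as selection by the test favours.

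H2bc8, a histone H2B gene of the chromosome 13 cluster, had a CpG-island-like peak (chr13:23571265-23571393) 71.0 bp upstream of its TSS, between it and the TSS of H2ac8. Its CPM fell from 17.5 and 17.9 to 4.67 and 5.28, with a log2 fold change of −1.83 (SE 0.17, adjusted p = 0.0303, edgeR). Such histone mRNAs mostly lack a poly-A tail and have near-identical copies, so this count is uncertain. Smpd3, which makes ceramide as neutral sphingomyelinase 2, was the called gene with the AP-1 sequence, printed above, in a peak 606.5 bp downstream of an inner TSS. It fell from 21.1 and 21.2 CPM to 6.98 and 7.11 CPM, with a log2 fold change of −1.59 (SE 0.15, adjusted p = 0.0303, edgeR). Ttc39b, a tetratricopeptide protein gene, and Nt5c3, a pyrimidine nucleotidase gene, fell less. Ttc39b went from 83.9 and 81.2 CPM to 42.9 and 37.3 CPM, with a log2 fold change of −1.04 (SE 0.12, adjusted p = 0.0344, edgeR). Nt5c3 went from 48.3 and 47.6 CPM to 28.3 and 26.2 CPM, with a log2 fold change of −0.82 (SE 0.12, adjusted p = 0.0438, edgeR).

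The 3 genes that rose were Gad1, Gpr153 and Ttl. Gad1, the glutamate decarboxylase that makes GABA, had the CTCF sequence in a peak 119.5 bp upstream of a TSS. It had 17 and 25 counts in the treated libraries and 1 count in each control, a ratio of 24.7 with a counting interval of 6.43 to 210.6 (adjusted p = 0.0410, edgeR). Gad1 passed the filter through its treated counts alone, so it had to differ if tested, and Gad1os overlaps it on the genome. Gpr153, an orphan receptor gene, had its peak (chr4:152273661-152273814) 368.5 bp upstream of a TSS in GC-rich sequence. It rose from 3.45 and 3.58 CPM to 17.9 and 11.2 CPM, with a log2 fold change of 2.05 (SE 0.29, adjusted p = 0.0437, edgeR). Ttl, the tubulin tyrosine ligase gene, had a CpG-island-like peak in its intron 607 bp downstream of its TSS and rose from 14.6 and 15.1 CPM to 27.02 and 26.2 CPM. The log2 fold change was 0.84 (SE 0.13, adjusted p = 0.0486, edgeR). In all 3 the treated libraries lay above both controls, which selection by the test makes nearly certain.

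These calls depended in part on which libraries and which scaling entered the fit. In fits without 1 library, the group left with 1 library was assumed to vary as the other group did, and calls rest on that assumption. Without treated replicate 1 or 2 the 10 genes kept the sign of their log2 fold change. Without control replicate 1, and likewise without control replicate 2, Smpd3, Ttc39b, Nt5c3, Ttl and Gad1 were no longer called. In these 2 fits the log2 fold changes were −1.61 and −1.60 for Smpd3, −1.04 and −1.08 for Ttc39b, and −0.83 and −0.84 for Nt5c3. They were 0.80 and 0.84 for Ttl and 4.53 and 4.37 for Gad1, all near the values of the full fit. With library size alone in place of TMM scaling, Ttc39b (adjusted p = 0.0561, edgeR), Nt5c3 (0.0653), Gpr153 (0.0689) and Ttl (0.0955) were not called. Annotated genes overlap Nostrin, Smpd3, Ttc39b, Nt5c3, Gpr153, Ttl and Gad1, and whether the counting used strand is not given in the sources used here, so reads of such neighbours cannot be told apart.

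**Figure D4:**
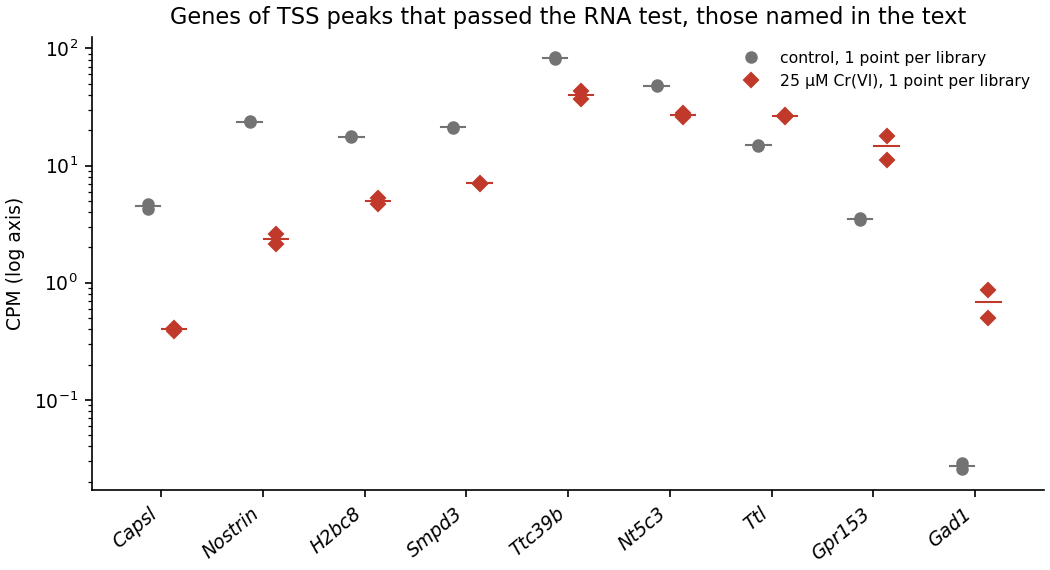
CPM on a log axis in the 2 control (grey circles) and 2 treated libraries (red diamonds) of 9 genes of TSS peaks with an adjusted p under 0.05, with bars at the group means, ordered by log2 fold change. The genes run from Capsl, at 4.29 and 4.66 CPM in control against 0.384 and 0.414 CPM in treated libraries, to Gad1. The groups do not overlap in any of the 9, which selection by the test makes nearly certain. Among all tested genes the treated libraries lay wholly below the controls in 34.0% and wholly above in 32.2%.

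The AP-1 peaks belonged to 29 genes, of which 17 were in the count table and 13 were tested. The 4 with too few counts included Spata45, Mir3097 and Sctr, and Gm35171, Gm36874, A130051J06Rik, Gm41677, Gm41699, Gm30286, Gm33215, Rap1gapos, Mir7047, Gm30757, Gm36059 and Gm52431 had no row. Of the 13, 11 were lower in treated cells (84.6%, 57.8 to 95.7, beside 50.4% of all tested genes), with a median log2 fold change of −0.30. The genes were read in the same libraries and are not replicates, so that such intervals understate the uncertainty. Without treated replicate 2 the log2 fold changes of Wbp1l and Stk10 were 0.0016 and 0.13. That of Tex2 was −0.067, and the rest of the 11 stayed negative. The edgeR test called 1, Smpd3 (4.63% of all tested genes were called), and DESeq2 called 5 (13.3% of all genes it tested), with Cpt1a, Cdkal1, Fam53b and Slc4a11 beside Smpd3. The groups were apart and lower in 9 (69.2%, 42.4 to 87.3; 34.0% of all genes), apart and higher in 2 (15.4%; 32.2% of all genes), and they overlapped in Wbp1l and Stk10. Cpt1a, which carries long-chain fatty acids into mitochondria, had 68.5 and 39.95 CPM in treated and 127.3 and 127.0 CPM in control libraries. Its log2 fold change was −1.23 (SE 0.28, adjusted p = 0.0817, edgeR). This gene had a second peak without the sequence, 482 bp upstream of its 5′-most TSS. Cdkal1, a tRNA-modifying enzyme, had 5.05 and 3.66 CPM against 10.6 and 11.2 CPM (log2 fold change −1.32, SE 0.23, adjusted p = 0.0567, edgeR). Fam53b had 17.7 and 13.5 CPM against 29.7 and 30.3 CPM (log2 fold change −0.94, SE 0.18, adjusted p = 0.0641, edgeR).

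The other AP-1 genes did not pass the edgeR test either, and of these DESeq2 called Slc4a11 (adjusted p = 0.0285). Gcnt2, a glycosyltransferase gene, had 54.3 and 84.0 CPM in treated and 102.5 and 100.6 CPM in control libraries. Shfl, an antiviral gene, had 16.8 and 15.6 against 20.5 and 20.4 CPM, Tex2 48.1 and 33.9 against 51.4 and 49.4 CPM, Aig1 16.4 and 13.4 against 17.4 and 17.8 CPM, and the tetraspanin gene Tspan9 145.5 and 150.2 against 172 and 177 CPM. In each of these 5 genes the treated libraries lay below both controls. Wbp1l had 143.4 and 98.6 against 143.3 and 142.8 CPM and Stk10 37.3 and 29.8 against 33.1 and 35.2 CPM, so that their groups overlapped. P2rx7, an ATP-gated ion channel gene, and Slc4a11, a membrane transporter gene, were the 2 that stood higher. P2rx7 had 113.5 and 119.7 against 90.6 and 91.0 CPM (log2 fold change 0.36, SE 0.10, adjusted p = 0.110, edgeR). Slc4a11 had 26.7 and 61.5 against 20.6 and 21.2 CPM, so most of its difference came from treated replicate 2.

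**Figure D5:**
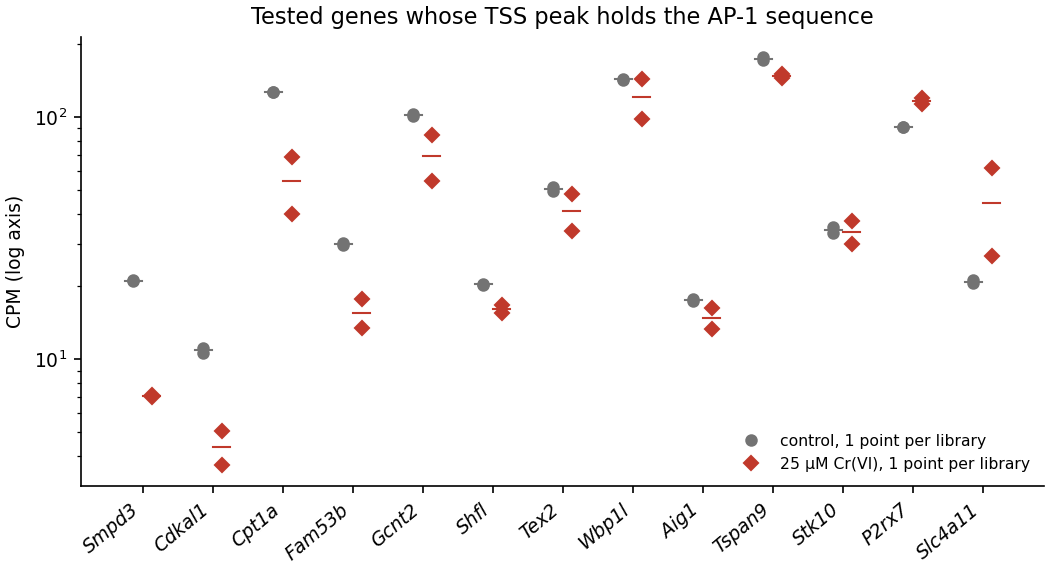
CPM on a log axis in the 2 control (grey circles) and 2 treated libraries (red diamonds) of the 13 tested genes whose TSS peak holds the AP-1 sequence, with bars at the group means, ordered by log2 fold change. The treated libraries lie below both controls in 9 genes and above them in P2rx7 and Slc4a11.

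Genes of 10 pathway lists were looked up among the 287 peak genes, out of 39064 annotated genes. None of the 27 annotated p53 targets, 14 genes of the aryl hydrocarbon receptor pathway, 55 DNA repair genes and 36 liver-enriched genes did. There was 1 in each of 6 other lists. These were Sod1 of 30 NRF2 and glutathione genes, the copper pump gene Atp7a of 17 metal response genes, Ier5 of 31 immediate early genes and Pds5b, a cohesin regulator, of 32 AP-1, BACH, CTCF and cohesin genes. The others were Brd2, a bromodomain reader of acetylated histones, of 65 chromatin enzymes and Hsp90aa1 of 14 heat shock genes. In RNA, 4.63% of all tested genes passed the edgeR test, 1.78% higher and 2.85% lower. Of these lists, the genes that passed were 0 of 27 p53 targets, 0 of 29 NRF2 genes, 0 of 15 metal response genes, 2 of 29 immediate early genes (1 higher and 1 lower) and 0 of 29 in the AP-1, BACH, CTCF and cohesin list. They were also 0 of 13 aryl hydrocarbon receptor genes, 3 of 62 chromatin enzymes (2 higher and 1 lower), 1 of 55 DNA repair genes (lower), 7 of 25 liver genes (all higher) and 0 of 13 heat shock genes.

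None of the 6 list genes with a peak passed the edgeR test. DESeq2 called Brd2, Ier5 and Sod1 (adjusted p = 0.000795, 0.00516 and 0.0455), beside 13.3% of all genes it tested. In 4 of the 6 both treated libraries stood above both controls, beside 32.2% of all genes tested with edgeR. So few genes cannot be told from these shares. Ier5 had 193 and 384 CPM in treated against 131.6 and 132.5 CPM in control libraries (log2 fold change 1.13, SE 0.35, adjusted p = 0.126, edgeR). Brd2 had 619 and 932.5 against 372 and 375 CPM (log2 fold change 1.06, SE 0.24, adjusted p = 0.0817, edgeR). Sod1 had 547 and 896.5 against 427 and 432 CPM and Hsp90aa1 814 and 1124 against 754.0 and 754 CPM. Treated replicate 2 was the higher one in all 4. Atp7a had 13.4 and 8.11 against 15.8 and 14.5 CPM, and in Pds5b, with 124.0 and 72.6 against 124 and 115.4 CPM, the groups overlapped. Among the other well-expressed peak genes with large differences, Norad, the noncoding RNA with a peak on its TSS, had 420.5 and 471 against 261 and 264.5 CPM (log2 fold change 0.76, SE 0.13, adjusted p = 0.0558, edgeR). Ccdc68 had 2.96 and 1.35 against 7.65 and 7.88 CPM (log2 fold change −1.84, SE 0.41, adjusted p = 0.0783, edgeR), and Csrnp1 had 17.8 and 45.5 against 15.99 and 17.3 CPM. The abundant Scd2 had 2007 and 1309 against 2788 and 2710 CPM (log2 fold change −0.73, SE 0.28, adjusted p = 0.169, edgeR).

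Genes with the most prominent or most central peaks had no common direction in RNA. Of the 5 highest scores, Snap47 had a log2 fold change of −0.02 and Ephx3 of 1.84 from few counts (adjusted p = 0.940 and 0.169, edgeR), while Ttc39b fell as given above. Among the widest peaks, Foxk1 had 0.22 and Rassf9 −0.49. Of the genes with a peak on or beside the TSS, Bak1 had 0.05, Gmpr2 0.05, Ndufs7 −0.11, Platr14 −0.33 and Fundc1 −0.42, and none passed the edgeR test. Of the genes listed for an AP-1 site without an exact match, Slc29a1 had −0.29, Pgap3 0.27 and Gm19461 0.08, and none passed the edgeR test.

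The RNA of the nearest gene was also read by the position of the peak, with calls by edgeR beside 4.63% of all tested genes called. The median log2 fold change was −0.12 for genes with an upstream and −0.096 for genes with a downstream peak, and 5 of 88 and 5 of 95 were called. Within 250 bp of the TSS it was −0.15 with 5 of 60 called, and beyond it −0.074 with 5 of 123 called. At the 5′-most TSS it was −0.031 (6 of 89 called) and at inner TSSs −0.18 (4 of 94 called). With a CpG-island-like peak it was −0.064 (2 of 53 called) and without −0.12 (8 of 130 called). Each of these medians lay inside the quartiles of all tested genes, and differences between the classes were not tested.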

How the data were processed

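The members, gene lists and sequences searched were chosen with earlier results of these data known. The authors sequenced FAIRE DNA and poly-A RNA, aligned FAIRE reads with BWA to mm10, ran MACS on each treated library with the matching control as input, and deposited the peak intervals with the MACS score (10 times the negative log10 of p). For RNA, the authors aligned reads with TopHat and deposited raw counts per gene, not normalized. CASAVA 1.8, bcl2fastq and DESeq are also named in the submitters' processing notes. The labels and the methods name different RNA extraction reagents.

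Every acute peak was assigned to the nearest RefSeq TSS (GRCm38/mm10), and its centre had to lie within 1000 bp. Sequence was read from the reference with pysam 0.24.0, and exact matches were searched on both strands. Shares have 95% Wilson intervals from scipy 1.17.1. RNA counts (32319676 to 37696116 per library) were filtered on low values, scaled by TMM (printed CPM too) and tested with edgeR 4.0.16 (quasi-likelihood, Benjamini-Hochberg, threshold 0.05) on 2 treated and 2 control libraries, under R 4.3.3. On simulated counts of 13619 genes for this comparison, 98% of 4-fold changes were recovered and 10 of 152 calls were false. The simulation gave all genes and both groups 1 common dispersion, whereas the real treated libraries differed more from each other than the controls. These rates therefore need not hold for the real counts. Smaller changes were planted too, and their recovery is not given here. Fits with DESeq2 1.42.0, without TMM, without the filter, with a replicate block and without each library were alternatives, beside other distances, score thresholds, windows and transcript sets for the peaks. Genes were named where they passed the test, held an AP-1 or CTCF sequence, belonged to a list, were on the study's list, lay at the 1000 bp limit, or were among the 5 or 10 leading peaks by score, width or distance, or the 5 leading genes by level or log2 fold change. Genes at NRF1, ETS or cyclic AMP element matches, beside long-term peaks, in repeats or without counts were singled out after their values were seen. Some members and genes that this rule takes are not reported here, and counts include them.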

Additional observations from a re-analysis of the deposited data

How the results depend on the processing

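The number of TSS peaks was 290, and it became 169 within 500 bp, 110 with a score of at least 60 and 2 with a score of at least 100. The CpG-island-like share of 19.7% became 24.9% within 500 bp, 13.6% with a score of at least 60 and 28.4% at curated transcripts, where the median GC content was 51.5%. The shares with the AP-1 and the CTCF sequence moved by less than their intervals under the same choices. Long-term peaks were near 2 TSS peaks, with 0 by overlap and 4 within 10000 bp. Calls among all genes (631) became 1978 with DESeq2 and ranged from 287 to 10995 without 1 library, and those among peak genes (10) became 33 with DESeq2 (15 higher, 18 lower), 6 without TMM scaling (1 higher) and 3 with a score of at least 60 (0 higher, 3 lower). Without 1 library the peak genes called ranged from 5 to 153 (higher 1 to 58, lower 4 to 95). A group left with 1 library was assumed to vary like the other group. Without TMM the median log2 fold change of all genes moved to −0.11 and that of the peak genes to −0.22. The latter stayed below 0 under all alternatives run, from −0.22 without TMM to −0.024 with a score of at least 60. Its standard deviation between the 2 treated libraries was 0.11, about as large as the main median of −0.12.

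With the replicate block 2969 genes and 46 peak genes (19 higher, 27 lower) were called, and the 10 were among them. The labels give only the shared numbers, and whether same-numbered libraries were paired is not known. Their deviations from the group means had a correlation of 0.0909. With 2 libraries a group both pairs give the same value by construction, so it cannot settle the pairing. Of the 37 named genes tested, DESeq2 called 9 more and the block 9 more. None of the 10 called genes changed sign. The uncalled Gm19461 did without TMM (−0.037), and without 1 library its log2 fold change ran from −0.073 to 0.24, that of Ndufs7 from −0.31 to 0.070, of Pds5b from −0.71 to 0.053, of Stk10 from −0.19 to 0.13 and of Wbp1l from −0.53 to 0.0016. The cause was not tested. With 1 FAIRE library a condition, the peaks have no replicate check.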
